A study of Arabidopsis thaliana with 12 samples.

Results

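The response to oxo-C14-HSL after a flg22 challenge was followed across the transcripts of seedlings labelled *ali1*. The loci described are those with at least 1 FPKM (the fragment count per transcript kilobase, corrected for library size) after oxo-C14-HSL or after acetone, which were 17040 of the 36101 loci of the table. Of these, 17038 had a usable value in both groups. *ali1* is a non-segregating T-DNA line (N560407) in the Col-0 background, with the insertion in *At5g14470*, the gene called *ALI1*. Seedlings grown for 2 weeks on plates were kept for 3 days with acetone, the solvent, or with oxo-C14-HSL at 6 µM, and every group, including the controls, was then challenged with 100 nM flg22 for 2 h. Whole seedlings were harvested, with 3 libraries for acetone and 3 for oxo-C14-HSL. A second table, from 6 libraries labelled Col-0, the wild type, and treated in the same way, was used for comparison only.

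*N*-acyl homoserine lactones (AHLs) are signals with which Gram-negative bacteria sense their own density. Oxo-C14-HSL is an AHL with a long acyl chain, and plants pretreated with it can respond more strongly to a later elicitor, which is known as priming. flg22 is a peptide of bacterial flagellin that is perceived by the receptor kinase FLS2 and starts pattern-triggered immunity, with a burst of reactive oxygen, MAP kinase activity and the induction of *WRKY* factors, callose deposition and antimicrobial compounds. *ALI1* encodes a protein of the GHMP sugar kinase family. As every library followed flg22, the comparison shows what the pretreatment changed in challenged seedlings and not the response to flg22 itself.

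The table gives 1 value per group, made by the authors from the 3 libraries, and no value per library. No spread between replicates could be given and no test was run, so a locus was called higher or lower when its 2 group values differed at least 2-fold. Differences are log2 ratios of oxo-C14-HSL over acetone, with 0.1 FPKM added to each value. How many reads stand behind a value is not known. In whole seedlings, fewer cells of a type and less RNA per cell cannot be told apart.

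The targeted gene went against the labels. *ALI1* (AT5G14470, chr5:4662775-4664681, minus strand) was listed at 27.4 FPKM (acetone) and 30.1 FPKM (oxo-C14-HSL) under the *ali1* label, and at 14.98 and 11.1 FPKM under the Col-0 label. The description field of the samples also names the table of the other genotype, against their titles. Both tables were scaled separately, so levels set across them are approximate. The groups are therefore called by their labels throughout, and which genotype a library held was not tested.

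Few transcripts differed by 2-fold. The median log2 ratio over the 17038 loci was 0.0096, with the 25th and 75th percentiles at -0.095 and 0.10. At 2-fold, 82 loci were higher after oxo-C14-HSL (0.481% of the loci) and 132 were lower (0.775%). At 1.5-fold the shares were 1.24% and 2.59%, and at 4-fold 0.182% and 0.241%. Among the 16003 loci that held protein-coding genes only, 26 were higher and 85 were lower. The loci past 2-fold were weakly expressed, with a median of the mean of both groups of 1.43 FPKM for the higher and 1.42 FPKM for the lower ones, against 12.2 FPKM for all loci used. Of the 82 higher loci, 60 were below 1 FPKM after acetone, and 95 of the 132 lower loci were below 1 FPKM after oxo-C14-HSL. Such loci entered only through the group in which they were high, as did 576 of the 17038. At least 1 FPKM in both groups was reached by 5 of the 26 higher and 30 of the 85 lower coding loci.

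The scatter of the ratios was widest at the lowest levels. The SD across loci was 1.25 for the 272 loci with a mean of up to 1 FPKM, 0.45 for the 2863 loci between 2 and 5 FPKM, and 0.17 for the 1360 loci above 100 FPKM. Of the loci with a mean of up to 1 FPKM, 24.3% were past 2-fold, against 0.22% of those between 10 and 20 FPKM. As the filter asks for 1 FPKM in 1 group, a locus with a mean of up to 1 FPKM entered through its higher group, so the spread and the share of that bin were set in part by the filter.

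**Figure D1:**
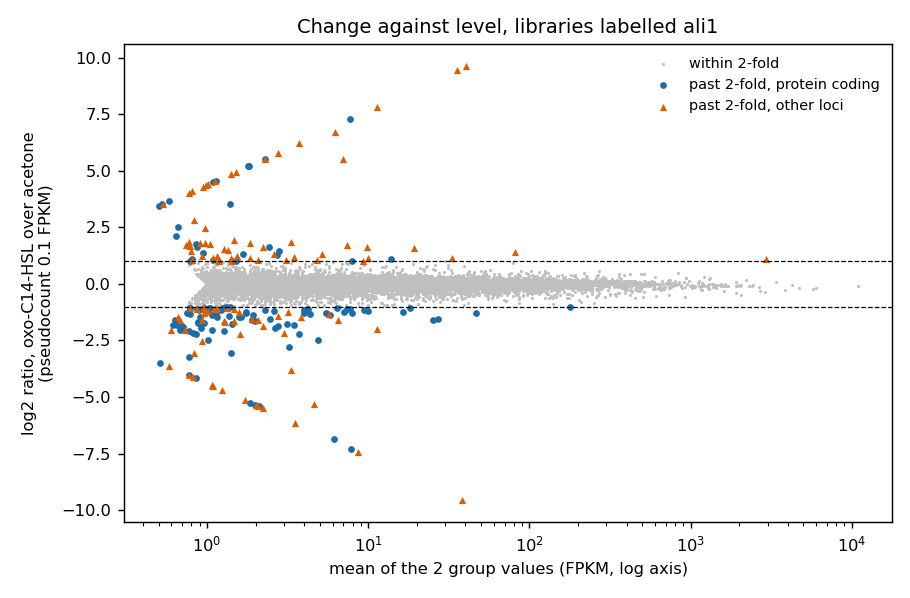
Log2 ratio of oxo-C14-HSL over acetone (pseudocount 0.1 FPKM) against the mean of the 2 group values (FPKM, log axis) for 17038 loci of the libraries labelled *ali1*. Dashed lines mark 2-fold, circles are protein-coding loci and triangles other loci past it. The points fan out below about 2 FPKM, and the lower side holds more protein-coding loci (85) than the upper one (26).

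Of the 46 lists with at least 5 loci used, those of flavonoid and of root endodermis and suberin genes had the highest medians. The higher values of the latter were those of genes of the Casparian strip, the lignin band with which the root endodermis seals the path between its cells. The CASP proteins mark the membrane domain where the strip forms, and the peroxidase PER64 and the dirigent protein ESB1 polymerize and place its lignin. *CASP1* (chr2:15158561-15160799) went from 9.02 FPKM after acetone to 15.38 FPKM after oxo-C14-HSL, a log2 ratio of 0.76. For *CASP4* (chr5:1877134-1878324) the values were 2.27 and 4.35 FPKM (0.91), and for *PER64* (chr5:16852628-16855741) 3.09 and 6.07 FPKM (0.95). *CASP2* was listed at 1.82 and 2.85 FPKM (0.62). The other measured members, named after their values were seen, were *ESB1* with 4.66 and 6.82 FPKM (0.54), and *MYB36*, the regulator that switches this gene set on, with 3.66 and 3.99 FPKM (0.12). No member reached 2-fold. Of 7 strip entries 6 could be used, and all 6 were above 0, with a median of 0.69. Over all loci 53.0% were above 0, with a median of 0.0096. As the strip genes were set apart after their values were seen, their shared direction follows in part from that choice.

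The 4 genes of suberin, the waxy polymer laid down later around endodermal cells, stood on the other side. *CYP86A1*, a fatty acid hydroxylase, went from 2.62 to 1.69 FPKM (log2 ratio -0.60), and *GPAT5*, an acyltransferase, from 1.60 to 1.02 FPKM (-0.60). The fatty acid reductase *FAR4* had 1.07 and 0.78 FPKM (-0.42), and the feruloyl transferase *RWP1* had 16.6 and 14.1 FPKM (-0.23). The median of the 4 was -0.51. The list of root endodermis and suberin genes thus held both directions, with 6 of 10 members above 0, 0 past 2-fold and a median of 0.33. The split into strip and suberin genes was made after the values were seen.

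In the libraries labelled Col-0 the same strip genes did not share this direction. *CASP1* was listed at 10.0 FPKM after acetone and 6.85 FPKM after oxo-C14-HSL (-0.54), *CASP4* at 2.04 and 1.63 FPKM (-0.31) and *PER64* at 3.65 and 3.56 FPKM (-0.04). Only *CASP2* of the 6 was above 0 there, and their median was -0.31. All 4 suberin genes were above 0 under the Col-0 label, with a median of 0.41. For these 3 genes the acetone values were closer to each other between the labels than the oxo-C14-HSL values.

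Further cell wall genes moved with the strip genes. These were chosen after their values were seen and are no independent group. *AT2G39430*, a dirigent-like protein, was listed at 4.02 FPKM after acetone and 8.11 FPKM after oxo-C14-HSL (0.99), just short of 2-fold on this scale. A second dirigent-like gene, *AT3G55230*, had 22.5 and 40.0 FPKM (0.83). *UCC1*, a blue copper protein of the uclacyanin family, had 4.85 and 8.93 FPKM (0.87), and *LAC3*, a laccase, 4.88 and 7.79 FPKM (0.66), although 2 of 8 laccases were above 0 and their median was -0.28. *AT5G66390*, a class III peroxidase, had 25.4 and 39.4 FPKM (0.63), although 35 of 45 loci of its family were at or below 0, with a median of -0.36. The dirigent family as a whole held both directions, with 8 of 19 loci above 0 and a median of -0.078. *DIR5*, a dirigent protein that takes part in lignan formation, was the only family member past 2-fold, with 7.79 and 3.11 FPKM (-1.30), and *DIR6* had 23.46 and 12.3 FPKM (-0.92).

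The anthocyanin branch of the flavonoid pathway was the second group with higher values. *DFR*, dihydroflavonol reductase, and *LDOX*, the dioxygenase that acts after it, make the coloured anthocyanidins, and the bHLH factor TT8 and the MYB factor PAP1 switch on this branch. *DFR* (chr5:17164093-17166032) went from 28.7 to 49.4 FPKM, a log2 ratio of 0.78. *LDOX* (chr4:12004726-12006209) had 13.3 and 24.6 FPKM (0.89), *TT8* 3.84 and 7.05 FPKM (0.86), and *AT5MAT*, the malonyltransferase that decorates anthocyanins, 6.69 and 12.1 FPKM (0.85). *PAP1* (AT1G56650) was listed at 5.07 and 7.86 FPKM (0.62).

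All 5 members of the branch were above 0, with a median of 0.85 and 0 past 2-fold. The branch was cut out of the flavonoid list, which had a median of 0.37 over 12 loci, with earlier results of these data known. The earlier steps and the flavonol genes lay lower, with 6 of 7 above 0 and a median of 0.16. Among them, *TT4*, chalcone synthase, the entry enzyme of the pathway, had 210 and 235 FPKM (0.16), *F3H* 83.6 and 99.1 FPKM (0.24), and *TT5*, chalcone isomerase, 90.2 and 85.9 FPKM (-0.07). Genes outside the list with higher values, chosen after they were seen, were *GSTF12*, the glutathione transferase that carries flavonoids to the vacuole, with 16.8 and 29.5 FPKM (0.81), and the flavonoid glycosyltransferase *UF3GT* with 3.03 and 5.10 FPKM (0.73). *AT4G14090*, a UDP-glycosyltransferase, had 7.93 and 12.6 FPKM (0.66).

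Most genes of the branch were listed higher after acetone under the Col-0 label, although the values of both labels were scaled separately. *DFR* was listed there at 53.9 and 57.2 FPKM (0.09), *LDOX* at 27.8 and 28.6 FPKM (0.04) and *TT8* at 6.06 and 5.81 FPKM (-0.06). The value of *DFR* after acetone was thus the lowest in the libraries labelled *ali1*, and the 3 other group values lay between 49.4 and 57.2 FPKM. *PAP1* did not follow this order, with 3.95 and 4.05 FPKM under the Col-0 label, below both values under the *ali1* label.

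**Figure D2:**
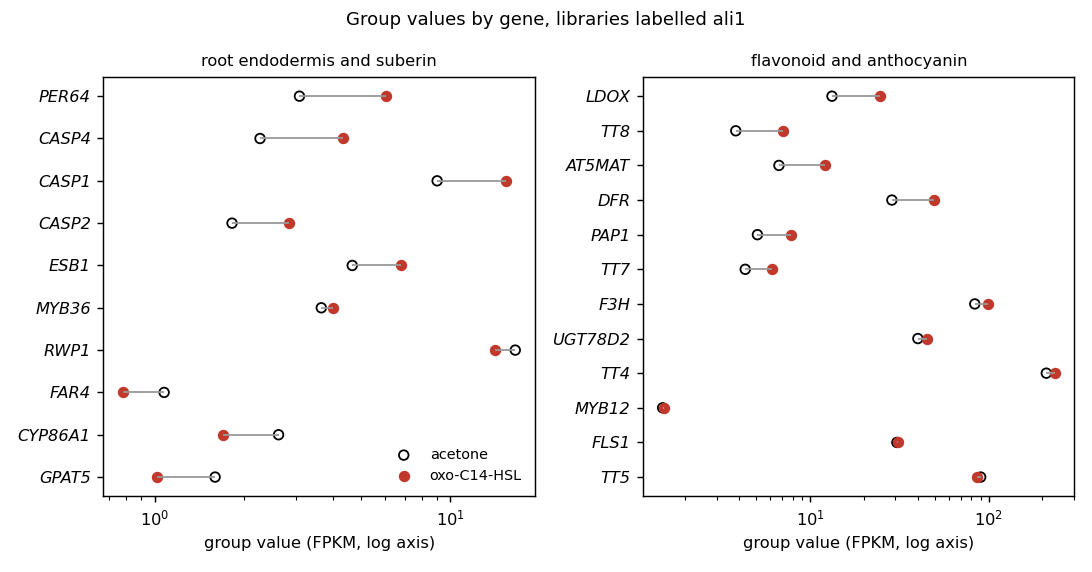
Group values (FPKM, log axis) after acetone (open circles) and oxo-C14-HSL (filled circles) of every list member used, for root endodermis and suberin genes (left) and flavonoid genes (right), in the libraries labelled *ali1*. Each point is the authors' value for 1 group. The 6 Casparian strip genes lie to the right after oxo-C14-HSL and the 4 suberin genes to the left, and the 5 anthocyanin genes shift further than the earlier steps of the pathway.

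Heat shock proteins, chaperones that hold or refold unfolded proteins, showed a smaller shift to higher values. *HSP101* (chr1:27935156-27940369), a disaggregase, went from 109 to 152 FPKM (0.48), and *BAG6* (chr2:18986133-18990220), a co-chaperone, from 9.48 to 16.3 FPKM (0.78). *HSP17.4*, a small heat shock protein, had 51.5 and 69.7 FPKM (0.43), *HSP70* 1213 and 1442 FPKM (0.25), and *HSC70-1*, the constitutive cognate, 3283 and 3510 FPKM (0.10). Of the 15 list members used, 14 were above 0 and 0 past 2-fold, with a median of 0.27. The exception was *HSP18.2*, with 1.72 and 1.21 FPKM (-0.47).

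The wider set of 57 loci whose product name says heat shock protein or HSP20, a set added after the data were seen, had a median of 0.13 with 43 above 0. Its upper end was *AT1G54050*, an HSP20-like protein with 17.2 and 28.6 FPKM (0.73). Members of the endoplasmic reticulum lay at the lower end or near 0: *BIP3* had 289 and 240.5 FPKM (-0.27), and *BIP1* and *BIP2* had log2 ratios of 0.01. The list of endoplasmic reticulum chaperones had a median of -0.033, with 5 of 12 above 0. Among heat shock factors, *HSFA2*, which amplifies the response, had 93.8 and 135 FPKM (0.52), *HSFB2A* 9.01 and 11.5 FPKM (0.35) and *MBF1C*, a coactivator, 77.6 and 97.7 FPKM (0.33), while the list median was 0.038 over 15 loci.

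The promoters of 2 heat shock genes are shown because they hold the site of heat shock factors, a heat shock element of alternating GAA and TTC blocks. Windows of 250 bases directly before the annotated gene start were searched on both strands for 3 such blocks with any 2 bases between neighbours (RefSeq sequence, TAIR10.1). The capitals mark the element, and the start of the gene follows the last base. *HSP17.4* (minus strand, chr3:16984868-16985117) had 2 elements, the nearer one ending 5 bases before the gene start, and *AT1G53540* (plus strand, chr1:19980049-19980298) had 1, ending 40 bases before it.
HSP17.4: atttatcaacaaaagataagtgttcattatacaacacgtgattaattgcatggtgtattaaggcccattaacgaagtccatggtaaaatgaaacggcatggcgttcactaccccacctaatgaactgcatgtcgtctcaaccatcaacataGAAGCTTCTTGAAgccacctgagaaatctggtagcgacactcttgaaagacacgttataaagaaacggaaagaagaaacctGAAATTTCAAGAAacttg
AT1G53540: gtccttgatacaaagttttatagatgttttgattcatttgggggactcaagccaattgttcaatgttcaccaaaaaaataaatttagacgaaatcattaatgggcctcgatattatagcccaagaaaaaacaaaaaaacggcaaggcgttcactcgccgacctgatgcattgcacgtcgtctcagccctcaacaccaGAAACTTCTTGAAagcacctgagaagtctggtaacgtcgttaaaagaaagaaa
*AT1G53540*, an HSP20-like gene, was listed at 46.4 and 58.6 FPKM (0.33). This strict element was found in 2 of the 51 windows of heat shock genes by product name (3.92%) and in 0.39% of 27437 windows of all protein-coding genes. It was in 0 of the 26 windows of the higher and 0 of the 85 windows of the lower coding loci. The W-box TTGACC or TTGACT, the site of WRKY factors, was in 32.9% of the 85 windows of the lower coding loci, in 19.2% of the 26 windows of the higher ones, in 13.7% of the 51 windows of heat shock genes and in 28.4% of all windows. A match is a description of letters and no measured binding site.

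Under the Col-0 label the same chaperones were lower after oxo-C14-HSL. *HSP101* went there from 228 to 122 FPKM (-0.90), *BAG6* from 27.1 to 13.6 FPKM (-0.996) and *HSP17.6A* from 702 to 301 FPKM (-1.22), against 330 and 437 FPKM (0.40) under the *ali1* label. The 15 list members had a median of -0.75 there and 0 above 0. For these 3 genes the acetone group labelled Col-0 held the highest of the 4 values.

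**Figure D3:**
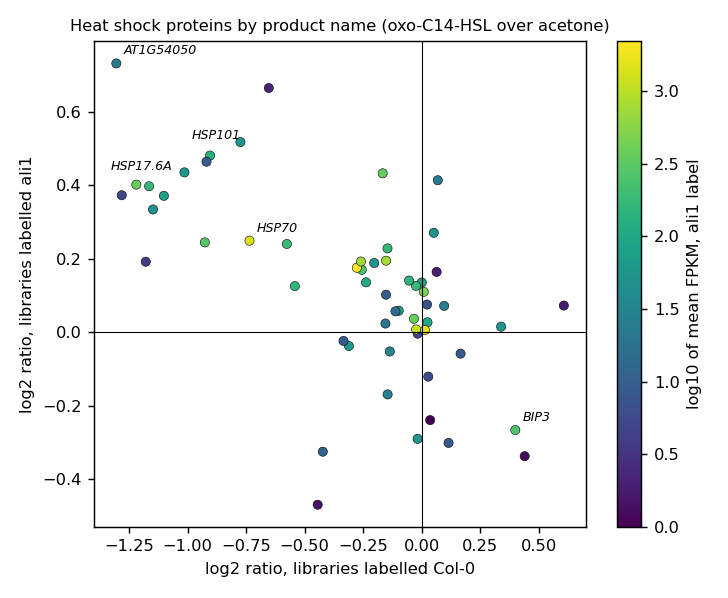
Log2 ratio of oxo-C14-HSL over acetone under the *ali1* label (vertical) against that under the Col-0 label (horizontal) for 57 loci with a heat shock product name. Each point is 1 locus and its colour the log10 of its mean FPKM under the *ali1* label. The loci farthest to the left, such as *AT1G54050* and *HSP101*, lie in the upper part, while *BIP3* lies below 0 and to the right.

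Of the 26 coding loci that were higher past 2-fold, 18 encode proteins with no described function. The 8 with a product name, named here because they are few, were led by *AT3G22235*, a cysteine-rich stress tolerance protein, with 0.13 and 2.63 FPKM (3.56). *NRT1.5* (chr1:11711944-11719988), the transporter that loads nitrate into the xylem, had 1.12 and 3.72 FPKM (1.64). *CPL3* (AT4G01060), a small MYB protein of epidermal patterning, had 0.49 and 1.41 FPKM (1.36), and *AFR*, an F-box protein of far-red light signalling, 1.56 and 3.88 FPKM (1.26). *ACS11* (chr4:4886962-4889224), one of the synthases of the ethylene precursor, had 5.16 and 10.6 FPKM (1.03). The remaining 3 were *AT5G40153*, a peroxidase gene (1.07), *AGL29*, a MADS box gene (1.02), and *AT5G55460*, a lipid transfer protein (1.01), all at 2.07 FPKM or less in both groups.

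Of these 8, *NRT1.5*, *AFR* and *ACS11* had at least 1 FPKM in both groups. Under the Col-0 label *NRT1.5* was listed at 2.92 and 3.27 FPKM (0.16) and *ACS11* at 7.26 and 8.93 FPKM (0.29), so in both cases the acetone group labelled *ali1* was the lowest of the 4. Most other ethylene genes were at or below 0, as the list had 5 of 20 members above 0 and a median of -0.13. *ACS2* had 10.6 and 7.74 FPKM (-0.45), *EFE* 316 and 351 FPKM (0.15), and *LEP*, an AP2 factor of leaf development, was past 2-fold on the lower side at 1.13 and 0.25 FPKM (-1.82). Above 50 FPKM, a higher coding gene near 2-fold, chosen after its value was seen, was *AGP18*, a lysine-rich arabinogalactan protein, with 54.4 and 103 FPKM (0.92).

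Cell wall proteins were described by family. *AT3G16670*, a protein of the Ole e 1 allergen and extensin family, went from 5.74 to 0.74 FPKM (-2.80), and *XTH20* (chr5:19481897-19483527), an enzyme that cuts and joins xyloglucan, from 6.16 to 1.25 FPKM (-2.21). *AT5G01870*, a lipid transfer protein, had 8.34 and 1.39 FPKM (-2.50), *LTP3* 2.60 and 0.23 FPKM (-3.05), and *GASA5*, a gibberellin-regulated peptide, 1.79 and 0.24 FPKM (-2.48). *GASA5* passed the level filter through the acetone group alone, and 4 of the 6 loci of its family were above 0, with a median of 0.052. The proline-rich extensins *AT3G54580*, *AT3G28550* and *AT1G23720*, structural rods that are cross-linked in the wall, had log2 ratios of -1.47, -1.45 and -1.27, all from values below 3 FPKM.

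Extensins with high values were lower by less. *EXT4* went from 2376 to 1716 FPKM (-0.47) and *EXT3* from 309 to 206 FPKM (-0.58). Of 26 extensin loci, 9 were above 0 and 4 were lower past 2-fold, with a median of -0.13, while over all loci 53.0% were above 0 and 0.775% lower past 2-fold. These 4 were below 1 FPKM after oxo-C14-HSL and passed the level filter through the acetone group alone. Of 30 loci of xyloglucan enzymes and expansins, the wall-loosening proteins, 13 were above 0 and 2 lower past 2-fold, with a median of -0.069. The second of these 2 was *EXPA14*, with 1.097 and 0.46 FPKM (-1.08). Among 57 lipid transfer loci, 18 were above 0, 4 were lower and 1 was higher past 2-fold (0.481% over all loci), with a median of -0.099. Of these 5, *AT5G01870* alone had at least 1 FPKM in both groups. In these 3 lists a few members lay far below 0, while most loci were within 2-fold.

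Class III peroxidases, secreted enzymes that cross-link the wall or make reactive oxygen, were shifted as a family. Of 45 loci, 35 were at or below 0, against 8012 of 17038 over all loci, and the median was -0.36. Past 2-fold were *AT4G08780* (chr4:5604105-5611215), with 5.46 and 1.49 FPKM (-1.81), and *AT2G38390*, with 1.72 and 0.78 FPKM (-1.05). Over all loci 0.775% were lower past 2-fold, and *AT2G38390* passed the level filter through the acetone group alone. *AT2G18150* had 15.35 and 8.50 FPKM (-0.85). The family members with the highest levels moved less: *AT5G64120* had 3262 and 2542 FPKM (-0.36) and *AT5G39580* 443 and 338 FPKM (-0.39). *PER64*, described above with the Casparian strip, was the highest of these 45 loci at 0.95. Under the Col-0 label the family median was 0.12 with 28 above 0, but *AT5G64120*, *AT5G39580* and *PER4* were below 0 under both labels.

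Transcripts of defence metabolism had lower values in most cases, mostly within 2-fold. *CYP71A12* (chr2:13099486-13101371), an oxidase on the way from indole-3-acetaldoxime to camalexin and related indole compounds, went from 10.0 to 4.13 FPKM (-1.26). *PAD3*, the last step of camalexin synthesis, had 2.30 and 1.35 FPKM (-0.72), and all 4 members of this list that could be used were below 0. *AT1G26410*, a berberine bridge-like oxidase, had 11.3 and 4.598 FPKM (-1.28), and 15 of 18 oxidases of this family were at or below 0, with a median of -0.21. *SAG13*, a senescence-associated dehydrogenase named after its value was seen, had 13.9 and 6.10 FPKM (-1.18).

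In the indolic glucosinolate pathway, *CYP83B1*, the enzyme that commits indole-3-acetaldoxime to glucosinolates, went from 1116 to 741 FPKM (-0.59), *UGT74B1* from 166 to 118 FPKM (-0.50) and *SOT16*, the last enzyme of the core pathway, from 391 to 285 FPKM (-0.46). Of 17 loci, 14 were at or below 0, with a median of -0.28. *CYP81F4*, which modifies the indole ring, was above 0 with 71.3 and 85.1 FPKM (0.25). In the aliphatic pathway the median was -0.15 over 20 loci, and *IMS2* went from 5.83 to 2.65 FPKM (-1.11). *CYP79F1* and *CYP79F2*, neighbouring paralogs whose reads may be shared, had log2 ratios of -0.50 and -0.06. Myrosinase *TGG1*, which breaks glucosinolates down, had 84.0 and 63.5 FPKM (-0.40).

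Chitinases and glutathione transferases leaned the same way. Of 15 chitinase loci, 12 were at or below 0, with *AT2G43610* at 10.5 and 4.90 FPKM (-1.09) and *CHIA* at 16.6 and 8.598 FPKM (-0.94). The most abundant member, *AT2G43620*, was above 0 with 862 and 1021 FPKM (0.24), and *AT4G01700* had a log2 ratio of -0.15. Of 44 glutathione transferase loci, 34 were at or below 0, with a median of -0.14 and 1 past 2-fold, *GSTF14*, with 1.16 and 0.20 FPKM (-2.06). *GSTF6*, the most abundant in the camalexin list, had 5039 and 4389 FPKM (-0.20). Genes of the root endoplasmic reticulum bodies, which store the myrosinase PYK10, and of their lectins had a median of 0.031, with 11 of 17 above 0. *PYK10* itself had 391 and 405 FPKM (0.05), while the beta-glucosidases *BGLU21* and *BGLU22* had 4.35 and 1.14 FPKM (-1.84) and 10.1 and 4.58 FPKM (-1.12).

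Several transcripts of mineral nutrition were about 2-fold lower. *FSD1* (chr4:12884300-12887011), the iron superoxide dismutase that plants make when copper is short, went from 66.4 to 27.0 FPKM (-1.29). *SPX1* (chr5:6802282-6803655), a phosphate sensor that is itself induced by phosphate starvation, had 24.6 and 11.8 FPKM (-1.05), and the phosphate transporter *PHT1;4* had 51.3 and 26.8 FPKM (-0.93). The starvation markers *PS2* (AT1G73010) and *PAP17* had log2 ratios of -0.78 and -0.71. *NRT2:1*, a high-affinity nitrate transporter, had 5.68 and 2.27 FPKM (-1.28), and the nitrate reductases *NIA1* and *NIA2* had log2 ratios of -0.55 and -0.51. *NAS4*, which makes the iron chelator nicotianamine, had 1.097 and 0.48 FPKM (-1.04).

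These lists were not shifted as wholes by much. The median was -0.098 for 10 phosphate, -0.12 for 18 nitrogen, -0.13 for 12 iron and -0.18 for 6 copper loci. Other members differed little, such as *PAP10*, an acid phosphatase, with 257 and 255 FPKM (-0.01), and *PHO2*, which controls phosphate loading, with 77.7 and 83.9 FPKM (0.11). *NRT1.5* moved in the other direction from *NRT2:1* within the nitrogen list.

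The falls with the highest levels were few. *AT3G18250*, a putative membrane lipoprotein, went from 239 to 119 FPKM (-1.003) and was the only coding locus above 100 FPKM past 2-fold. *AT5G40590* (chr5:16251318-16252434), a C1 domain protein, had 40.2 and 13.9 FPKM (-1.53), and *RGF7* (chr3:418357-419323), a peptide of the root meristem growth factor family, had 37.8 and 12.4 FPKM (-1.60). At a lower level, *AT5G01210*, an acyltransferase-like gene, was listed at 12.3 and 0.0079 FPKM, the largest fall of a coding gene above 0 in both groups. It passed the level filter through the acetone group alone. Under the Col-0 label it was also lower after oxo-C14-HSL, with 12.8 and 6.04 FPKM (-1.08).

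The 85 lower coding loci were set beside their values under the Col-0 label, with which no library was shared. Of the 30 with at least 1 FPKM in both groups, 21 were above 0 there, 10 of them past 2-fold, and 1 was lower past 2-fold. Among all 15588 coding loci with at least 1 FPKM in both groups, 46.4% were above 0 under that label and 1.21% higher past 2-fold. This background was not matched to the 30 loci for level, and under the *ali1* label shares past 2-fold were larger at low levels. On the higher side, 3 of the 5 coding loci with at least 1 FPKM in both groups were above 0 under the Col-0 label and 0 were past 2-fold. Among the lower genes, *XTH20* was listed there at 1.42 FPKM after acetone and 7.004 FPKM after oxo-C14-HSL, *AT5G01870* at 1.47 and 6.82 FPKM, and *FSD1* at 11.8 and 38.7 FPKM. *CYP71A12* had 2.97 and 12.7 FPKM there, and *SPX1* 10.4 and 17.9 FPKM. Among all 17248 loci of that table with at least 1 FPKM, 2.12% were higher and 0.557% lower past 2-fold.

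Other lower genes did not have higher values there. *RGF7* was listed at 19.5 and 15.9 FPKM under the Col-0 label, *SAG13* at 10.8 and 7.51 FPKM and *AT3G18250* at 124 and 111 FPKM. For *RGF7* and *AT3G18250* the acetone group labelled *ali1* was the highest of the 4, and the remaining 3 values lay between 12.4 and 19.5 FPKM for *RGF7* and between 111 and 124 FPKM for *AT3G18250*.

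**Figure D4:**
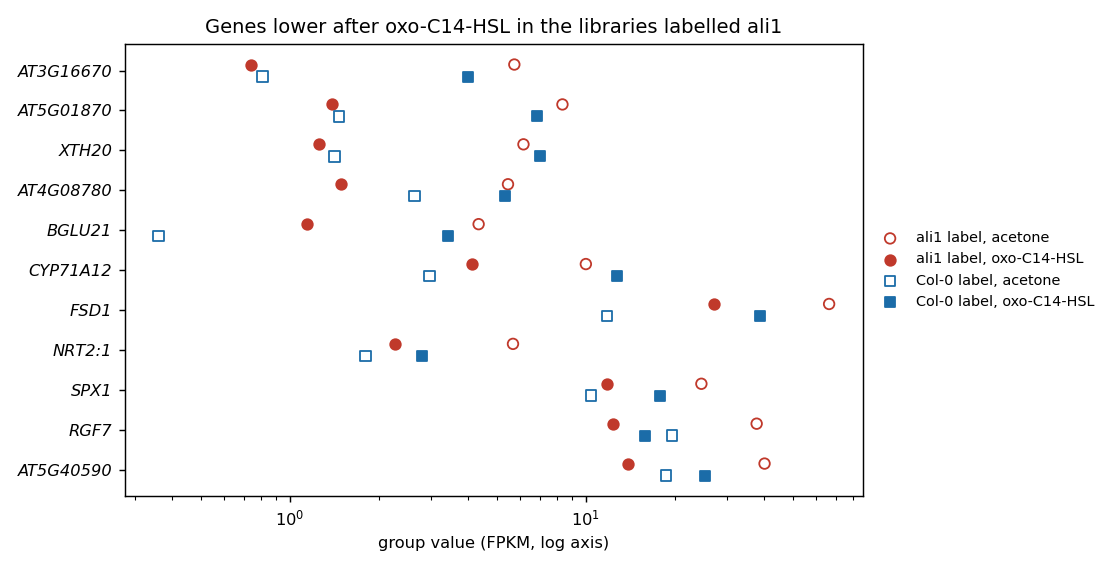
Group values (FPKM, log axis) of 11 genes that were lower past 2-fold after oxo-C14-HSL under the *ali1* label (circles), with the values under the Col-0 label (squares). Open symbols are acetone and filled symbols oxo-C14-HSL, each the authors' value for 1 group, and the 2 tables were scaled separately. The genes were chosen with their values known, and for most of them the open circle and the filled square lie to the right. For *RGF7* the open circle stands alone, and *SAG13* and *AT3G18250*, not shown, lack that order too. Of all 85 lower coding loci, 57 (67.1%) had these 2 values above the other 2, against 27.2% of coding loci below 0. Of the 85, 30 had at least 1 FPKM in both *ali1* groups, and the others passed the level filter through acetone alone.

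Regulators of immunity and most other programmes differed little. The 22 genes of the early flg22 response and its receptors had a median of -0.0047, with 10 above 0 and 0 past 2-fold. *FLS2*, the flg22 receptor, had 13.9 and 17.1 FPKM (0.30), *FRK1*, a kinase gene used as a marker of the response, 395 and 364 FPKM (-0.12), *WRKY22* 644 and 641 FPKM (-0.01) and *WRKY29* 185 and 177 FPKM (-0.06). The largest difference in this list was that of *PROPEP2*, a precursor of an elicitor peptide, with 6.43 and 3.68 FPKM (-0.79). The 48 WRKY loci had a median of -0.044, the 14 genes of salicylic acid and systemic acquired resistance -0.015, and the 21 jasmonate genes -0.035, each with 0 past 2-fold. *ST2A*, a sulfotransferase of hydroxyjasmonate, had 18.5 and 9.61 FPKM (-0.94), and *LOX2*, a lipoxygenase of jasmonate synthesis, 18.3 and 11.4 FPKM (-0.69).

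The 15 cell cycle genes had a median of 0.066 and the 18 auxin genes 0.062, against 0.58 and 0.55 under the Col-0 label. *PCNA1*, the sliding clamp of DNA replication, had 5.58 and 4.90 FPKM (-0.18) under the *ali1* label and 4.36 and 8.75 FPKM (0.99) under the Col-0 label. The 18 clock genes had a median of -0.083, and the 6 hypoxia genes -0.051. Of the 7 genes listed as measured by qPCR in the study, 6 could be used here, and *DFR* was the only one of these outside a range of -0.083 to 0.25. *PEX4*, of peroxisome assembly and the gene to which the study normalized its qPCR values, had 42.7 and 40.9 FPKM (-0.06).

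Tissue markers were set beside these results. Nuclear photosystem and carbon fixation genes were at or below 0 in 28 of 32 cases, with a median of -0.074 and a range of -0.28 to 0.11. Their summed level was 53609 FPKM after acetone and 50251 FPKM after oxo-C14-HSL under the *ali1* label, and 52261 and 55708 FPKM under the Col-0 label. Of 11 root meristem and stele regulators, 5 could be used, and the summed level of all 11 went from 95.4 to 66.4 FPKM, a difference that lay mostly in *RGF7*. *SCR*, which marks the endodermis and its stem cells, had 39.7 and 37.3 FPKM (-0.09), and *SHR* 4.37 and 4.18 FPKM (-0.06). Of the 11 root hair genes 9 were below 1 FPKM in both groups, *EXPA7* and *RHD6* among them at 0.20 FPKM or less. The share of root tissue in the samples was not measured, and its part in the results was not tested.

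**Figure D5:**
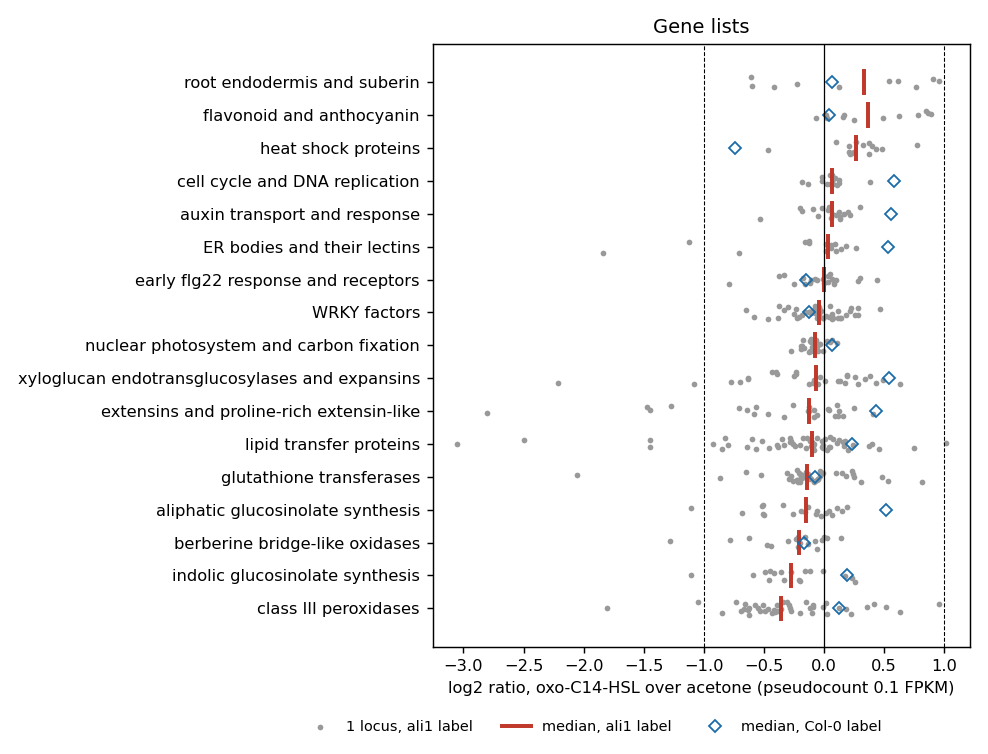
Log2 ratio of oxo-C14-HSL over acetone for the members of 17 gene lists. Grey points are single loci and red bars list medians under the *ali1* label, and blue diamonds are the medians of the same loci under the Col-0 label. The red bars run from 0.37 for flavonoid genes to -0.36 for class III peroxidases, and dashed lines mark 2-fold.

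Most of the largest ratios belonged to non-coding or uncharacterized loci with a value in 1 group only. Among the 82 higher loci 24 were listed at 0 after acetone, and among the 132 lower loci 20 were listed at 0 after oxo-C14-HSL. Of the small nucleolar RNA loci, 11 of 23 were higher and 5 lower past 2-fold, against 0.481% and 0.775% of all loci. Most of these were listed at 0 in 1 group and so passed the level filter through the other group alone. *AT1G74453*, a small nucleolar RNA gene, was listed at 0 after acetone and 80.5 FPKM after oxo-C14-HSL, and at 74.6 and 0 FPKM under the Col-0 label. *SNOR108* was listed at 76.1 and 0 FPKM, and at 0 in both groups labelled Col-0. *AT1G04277*, a small nucleolar RNA gene, and *AT4G02541*, an uncharacterized coding locus, were listed at the same value of 4.57 FPKM after oxo-C14-HSL and 0 after acetone, equal to the last digit. The libraries were made from poly(A)-enriched RNA, which leaves most such RNAs out.

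Non-coding loci with values in both groups included *U6.4*, a spliceosomal RNA gene, with 1882 and 4000 FPKM (1.09) under the *ali1* label and 962 and 2521 FPKM under the Col-0 label. Of the 1410 loci that hold several genes, 5 were higher and 3 lower past 2-fold, smaller shares than over all loci (0.481% and 0.775%). The largest were those of *AT3G18145* and *MIR3440b* with 0.20 and 13.8 FPKM (5.52), of *AT5G06505* and *AT5G06515* with 4.97 and 1.03 FPKM (-2.16), and of *AT4G03905* and *AT4G03925* with 0.76 and 2.92 FPKM (1.81). Their values cannot be divided among the genes. The mitochondrial locus that holds *atp1* and *cox1* was listed at 44.0 and 118 FPKM (1.42), and at 60.0 and 95.3 FPKM under the Col-0 label. In the chloroplast, 44 of 45 loci were listed at 0 after acetone with a note of too many fragments. That 0 is a failed estimate, so 2 of them that passed the level filter were given no ratio.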

How the data were processed

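The authors sequenced poly(A)-enriched RNA of 12 libraries, 6 of them labelled *ali1*, as single-end reads, aligned them with RNAStar, assembled transcripts with Cufflinks (2.2.1.0) and ran Cuffdiff (2.2.1.5) once per genotype. Genome build per the labels: TAIR10. The deposited tables give FPKM, made by the authors as 1 value for each group. The deposited columns of fold change, test statistic, p and q hold the authors' own comparison and were not used. Of 37928 gene names in the tables, 37881 matched the TAIR10.1 annotation, and 480 of 505 list entries had a locus and symbol that go together there. The others were left out of the lists, and 1 list gene is not reported here.

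Log2 ratios (pseudocount 0.1 FPKM) were computed with Python 3.11.15, numpy 2.4.6 and pandas 2.3.3 and tested on simulated data, with figures by matplotlib 3.10.9. Loci below 1 FPKM in both groups were left out. The gene lists, 29 by locus and 20 by product name, the members and the comparisons were chosen with earlier results of these data known. Genes to name were drawn from the 15 largest changes each way, per list the 4 largest changes and the 2 highest levels, the genes measured by qPCR, and up to 3 loci of several genes. Not all of these are named in the text, and those named were picked with their values known. Genes outside this rule were chosen after their values were seen. The alternatives were 2 pseudocounts, 2 level filters, 2 folds, centring, 1-gene loci and nuclear loci. With no value per library, no error or read depth stands behind a ratio.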

Additional observations from a re-analysis of the deposited data

How the results depend on the processing

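The counts of loci past 2-fold, 82 higher and 132 lower, depended on how low values were handled. They were 44 and 63 with a pseudocount of 1 FPKM, 361 and 566 with no filter on low values, and 21 and 35 with at least 5 FPKM in either group. At a fold of 1.5 they were 212 and 441, and at a fold of 4 they were 31 and 41. The lower loci outnumbered the higher ones in each of these settings. Both counts stayed within 1.5 times with a pseudocount of 0.01, after centring, with nuclear loci and with loci of 1 gene. Of 46 lists with at least 5 loci used, 35 had a median below that of all loci, and between 32 and 35 did so in every alternative. That range includes the one added after the data were seen, which kept list entries by locus alone (34). Centring could not change the count of 35 lists, since it moves every ratio by the same amount. The signs of the 307 genes checked could not change with the pseudocount either, because the same value is added to both groups. The largest ratios shrank most with a pseudocount of 1, as 63 of the 307 moved by more than the SD over all loci, 0.395. Without the filter 7 of 49 list medians changed sign and 2 moved by more than that SD, and with at least 5 FPKM 3 changed sign. No paired analysis was possible because the tables hold 1 value per group and none per library. For the same reason no replicate could be left out, and how far 1 library sets a value is unknown.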
